A study of Mus musculus with 48 samples.

Results

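Voltage-gated channels are membrane proteins that open when the voltage across the membrane changes. Of the 24421 gene symbols in the study's tables, 72 were taken here as genes of their pore-forming and accessory subunits, which is not a full list. The genes were taken by symbol: sodium channel pore and beta subunits (Scn), calcium channel pore, beta, alpha2delta and gamma subunits (Cacna1, Cacnb, Cacna2d and Cacng), and potassium channel subunits of the Kv1, Kv2, Kv3, Kv4, EAG and Kv7 families (Kcna, Kcnb, Kcnc, Kcnd, Kcnh and Kcnq) with the Kv beta subunits (Kcnab). They comprise 9 sodium pore genes, 4 sodium beta genes, 10 calcium pore genes, 4 calcium beta genes, 4 alpha2delta genes, 8 Cacng genes, 30 potassium pore genes and 3 Kv beta genes. The tables list the main sodium channel of many excitatory neurons under the older symbol Scn2a1, which the symbol pattern did not take.

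The study sequenced RNA of cells labelled as mouse astrocytes, in 48 libraries. The developmental libraries came from the cortex (P1, n = 3; P7, n = 3; P14, n = 4), the hippocampus (n = 3 at each age) and the olfactory bulb (n = 3 at each age), where P is the postnatal day, and their labels give no genotype or treatment. The P28 libraries were labelled Gabbr1 control or Gabbr1 cKO, a conditional knockout of the gene for subunit 1 of the GABA-B receptor, in cortex (4 and 4), hippocampus (2 and 4) and olfactory bulb (3 and 3). Tamoxifen was labelled as the treatment of both genotypes in hippocampus, olfactory bulb and 3 of the 8 cortex libraries, and the labels used here name no Cre driver or strain. The labels do not say that replicates came from separate animals, so p-values measure the spread between these libraries.

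In neurons, Nav channels carry the rising phase of the action potential, Cav channels couple depolarization to calcium entry and transmitter release, and Kv channels end the spike and set its frequency. Each channel is a pore subunit (for Kv channels, 4 pore subunits together) joined by accessory subunits that control its trafficking and gating. Astrocytes do not fire action potentials, and their resting membrane potential is set mainly by other potassium channels, but messenger RNAs of several voltage-gated subunits have long been found in them.

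The deposited values are normalized counts, meaning gene read counts divided by 1 scaling factor per library, and all comparisons were made inside one table of one region. Recovered totals were 1773226 to 15008466 reads per developmental library and 1859933 to 6352384 per P28 library. In hippocampus they were 5098757 to 8986015 at P1 and 2539583 to 4248087 at P14. In the olfactory bulb they were 5473837 to 9062118 at P1 and 1773226 to 2669394 at P14. Values of 0 at P14 in these regions therefore come from shallower libraries than those of P1. Of 10 astrocyte markers, 9 rose from P1 to P14 in cortex, and 10 of 10 in hippocampus and in the olfactory bulb. Their summed level went from between 21366 and 28242 to between 496460 and 554980 in cortex. At P1 it was 13833 to 15917 in hippocampus and 5042.5 to 7166.8 in the olfactory bulb. The P1 libraries also held neuronal RNA. The P1 sum of 6 immature neuron markers was above the astrocyte sum in hippocampus (19799 to 27156) and olfactory bulb (29062 to 31149). In cortex it was below (9539.8 to 15069). The 13 neuron markers summed to 7117 to 8490 at P1 and 1798 to 2143 at P14 in cortex, to 5126 to 5301 and 2282 to 2490 in hippocampus, and to 9191 to 10077 and 3548 to 3786 in the olfactory bulb. Between P1 and P14 11, 10 and 10 of the 13 fell in these regions, and 1 rose in the olfactory bulb. Of 6 immature neuron markers, all 5 that could be tested in cortex and all 6 in hippocampus and olfactory bulb fell, and of 8 mature oligodendrocyte markers 6 of 7, 4 of 4 and 4 of 4 tested rose. Opalin, a mature oligodendrocyte marker, was listed at 0 in every hippocampal and olfactory bulb library from P1 to P14. The part of these shifts in the channel results was not tested, and in bulk RNA fewer cells of a type and less RNA per cell cannot be told apart.

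From P1 to P14 most of the tested channel genes fell in all 3 regions, while Kcna2, which encodes the Kv1.2 pore subunit, rose in all 3 and became the highest of them by level per kilobase. A gene was tested where its mean was at least 10 normalized counts over the libraries of a table, and was called at an adjusted p under 0.05 (limma on log2(value + 1), Benjamini-Hochberg over all genes tested). In cortex 51 of the 72 genes could be tested, of which 38 fell (74.5%, against 40.3% of all genes tested) and 4 rose (7.84%, against 24%). In hippocampus 41 could be tested, of which 21 fell (51.2%, against 28.5%) and 5 rose (12.2%, against 21%). In the olfactory bulb 48 could be tested, of which 27 fell (56.25%, against 31.4%) and 3 rose (6.25%, against 24.8%). The median log2 change of the tested channel genes was -2.11 in cortex, -1.46 in hippocampus and -1.74 in the olfactory bulb, and that of all genes was -0.27, -0.29 and -0.24.

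The same filter held for every gene, and it lets a gene pass through the one age at which it is high, so these counts describe the genes that passed. With no filter on level, 42 of 71 cortical channel genes fell (59.2%, against 33.1% of all genes) and 5 rose (7.04%, against 15.2%). The hippocampal counts were then 27 of 68 lower (39.7%, against 24.8%) and 6 higher (8.82%, against 12.8%), and those of the olfactory bulb 29 of 71 lower (40.8%, against 24.5%) and 4 higher (5.63%, against 15.7%). Another scaling moved the split of calls over all cortical genes: 37.4% of the called genes were higher at P14 with the deposited scaling, and 51.0% after TMM scaling, which moved the median change of all cortical genes to 0.00. After that scaling 36 channel genes fell and 6 rose in cortex. There were 39 channel genes tested in all 3 regions and 19 in no developmental table, among them Scn2b, Scn4a, Scn4b, Scn7a, Scn10a and Scn11a. No channel gene was called in opposite directions in 2 regions.

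**Figure D1:**
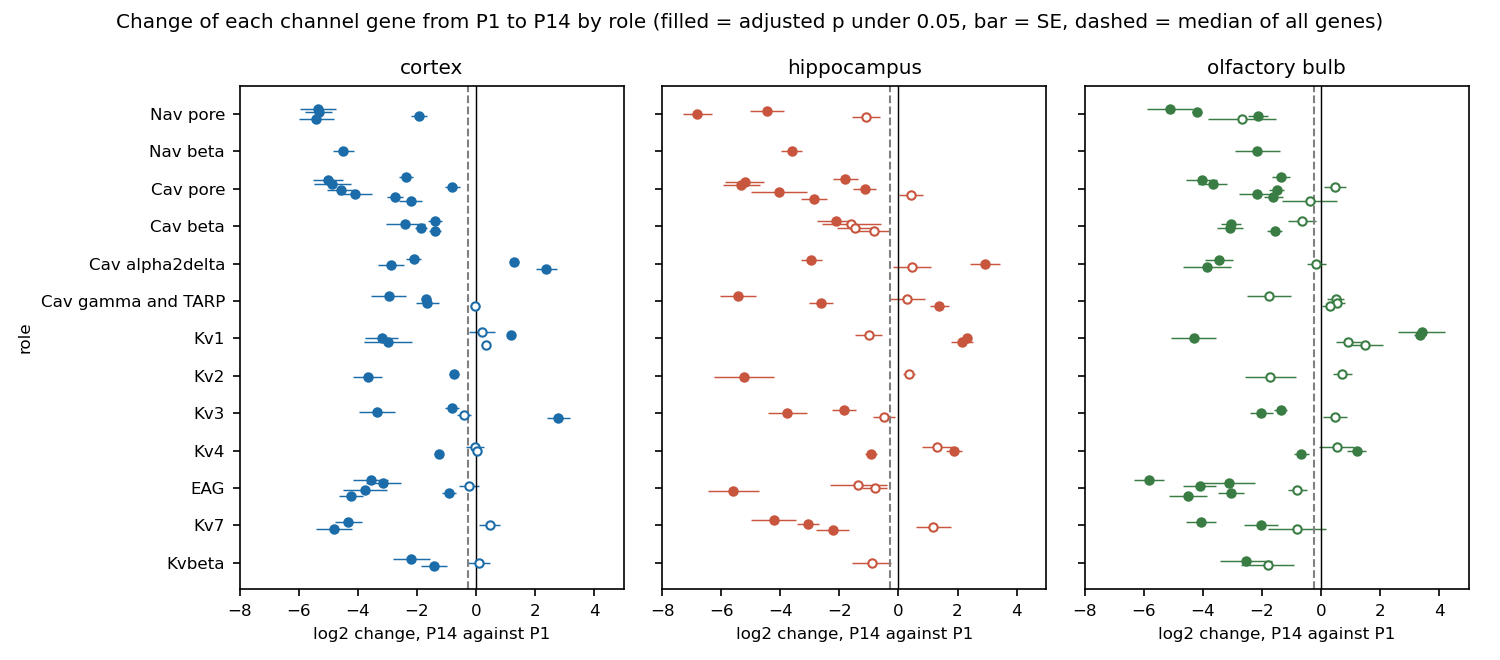
Log2 change of each tested channel gene from P1 to P14 (horizontal axis) by role (rows) in the 3 regions; points are genes, filled where called, bars are standard errors, and the dashed line is the median of all genes. Most points lie left of the dashed line in all 3 panels, and the called rises are 4 in cortex, 5 in hippocampus and 3 in the olfactory bulb.

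Among the sequences just before the RefSeq start sites of these genes, those of Kcna2, which rose in all 3 regions, of Kcnd2, which rose in hippocampus and olfactory bulb, and of Cacna1b and Cacna2d1, which fell, are shown because these genes span both directions of the age change. They are read 5′ to 3′ on the strand of the gene and come from RefSeq on GRCm38.p6 (the mm10 build). Capitals mark GC boxes (GGGCGG, searched on both strands, so also CCGCCC), a motif bound by Sp-family factors. The Kcna2 stretch is chr3:107101395-107101566 (+ strand, 172 bases, inside the annotated span of the gene and shortened to leave out an exon of a longer transcript), the Kcnd2 stretch chr6:21215096-21215345 (+), the Cacna1b stretch chr2:24763153-24763402 (-) and the Cacna2d1 stretch chr5:15934441-15934690 (+).
Kcna2: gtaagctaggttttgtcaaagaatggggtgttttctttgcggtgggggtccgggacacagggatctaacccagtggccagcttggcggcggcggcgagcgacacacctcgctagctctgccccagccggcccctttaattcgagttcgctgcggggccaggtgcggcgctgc
Kcnd2: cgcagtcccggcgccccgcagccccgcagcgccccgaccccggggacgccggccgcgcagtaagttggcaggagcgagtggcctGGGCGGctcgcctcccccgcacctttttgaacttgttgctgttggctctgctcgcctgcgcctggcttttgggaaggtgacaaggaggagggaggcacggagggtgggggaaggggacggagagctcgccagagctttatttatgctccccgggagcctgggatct
Cacna1b: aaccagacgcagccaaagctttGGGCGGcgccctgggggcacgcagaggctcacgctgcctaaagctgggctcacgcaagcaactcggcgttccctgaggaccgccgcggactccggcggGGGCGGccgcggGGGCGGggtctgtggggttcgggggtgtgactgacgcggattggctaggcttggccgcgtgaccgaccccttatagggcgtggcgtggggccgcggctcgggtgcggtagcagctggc
Cacna2d1: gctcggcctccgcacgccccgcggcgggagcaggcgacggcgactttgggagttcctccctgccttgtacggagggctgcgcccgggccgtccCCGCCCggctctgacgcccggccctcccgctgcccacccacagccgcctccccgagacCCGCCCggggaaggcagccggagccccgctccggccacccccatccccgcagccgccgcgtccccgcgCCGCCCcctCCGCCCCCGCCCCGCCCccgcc
The Kcna2 stretch held 0 GC boxes and 14 CpG, and the Kcnd2 stretch 1 GC box and 22 CpG. The Cacna1b stretch held 3 and 29, and the Cacna2d1 stretch 6 and 36. A link between GC boxes and the direction of the age change was not tested, and other genes did not follow the order of those shown. Cacna2d2, Kcnc4 and Cacng7, which rose in at least 1 region, held a GC box in the 250 bases, and Kcna6 held none. Among genes that fell, Kcnh7, Kcnc1 and Kcnc2 held one, and Cacna1c, Cacna1e, Kcnd3 and Scn1a did not. The RefSeq table matched 51 of the 72 genes. Over the 250 bases before the start site, 27 of the 51 (52.9%) held a GC box, against 32.9% of all 27025 promoters, and the median GC content was 62% against 52%. The TATA box (TATAAA, both strands) was in 1 of the 51 (1.96%, Cacna1d) and in 12.97% of all promoters. These matches describe letters in the window and no binding.

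Kcna2 was the one channel gene that rose from P1 to P14 in every region. It lies at chr3:107101146-107115005 on the + strand (GENCODE M21, GRCm38), where no other annotated gene overlaps it. Kv1.2 subunits form low-threshold, slowly inactivating potassium channels, known best from axons and nerve terminals. In cortex Kcna2 stood at 592, 656 and 673 at P1, 986, 1115 and 1075 at P7 and 1378, 1493, 1461 and 1516 at P14. In hippocampus it stood at 322, 325 and 290 at P1, 763, 811 and 839 at P7 and 1622, 1474 and 1607 at P14. Its olfactory bulb values stood at 116, 129 and 101 at P1, 359, 378 and 228 at P7 and 1252, 1068 and 1213 at P14. No 2 ages overlapped in any region, and each step was upward. The log2 change from P1 to P14 was 1.19 ± 0.08 (± SE, as below) in cortex, 2.32 ± 0.11 in hippocampus and 3.34 ± 0.20 in the olfactory bulb, with adjusted p of 3.47e-08, 3.04e-08 and 3.15e-07. Under the alternatives run, including leaving out each library, it stayed between 1.04 and 1.47, 1.99 and 2.40, and 3.15 and 3.43.

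Kcna2 took a growing share of the channel messages. It made up 8.11% ± 1.40 (SD, n = 3) of the summed normalized counts of the 72 genes at P1 in cortex, 17.5% ± 4.71 at P7 (n = 3) and 38.95% ± 1.68 at P14 (n = 4). In hippocampus the share went from 7.27% ± 0.719 over 17.9% ± 2.37 to 45.5% ± 6.64 (n = 3 each), and in the olfactory bulb from 1.79% ± 0.280 over 3.45% ± 0.830 to 29.6% ± 2.35. These sums count longer messages more than shorter ones. Per kilobase of exon, Kcna2 led the channel genes at P14 with 123 ± 5.09 (SD) in cortex, where Cacng7 (51.9 ± 6.72) and Kcnd2 (39.2 ± 4.72) followed. At P1 the leading cortical genes per kilobase, Cacnb3 (54.8 ± 9.26), Kcna2 (53.8 ± 3.57) and Cacng7 (53.3 ± 6.58), did not differ beyond their spread. In hippocampus Kcna2 reached 132 per kilobase at P14, with Kcnd2 at 59.8 and Cacng7 at 58.9, whereas Kcnd3 led at P1 with 37.0. In the olfactory bulb Kcnd3 led at P1 with 107 and Scn3a followed with 61.0, and at P14 Kcna2 (98.9) stood above Kcnd3 (68.5) and Kcnd2 (63.6).

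**Figure D2:**
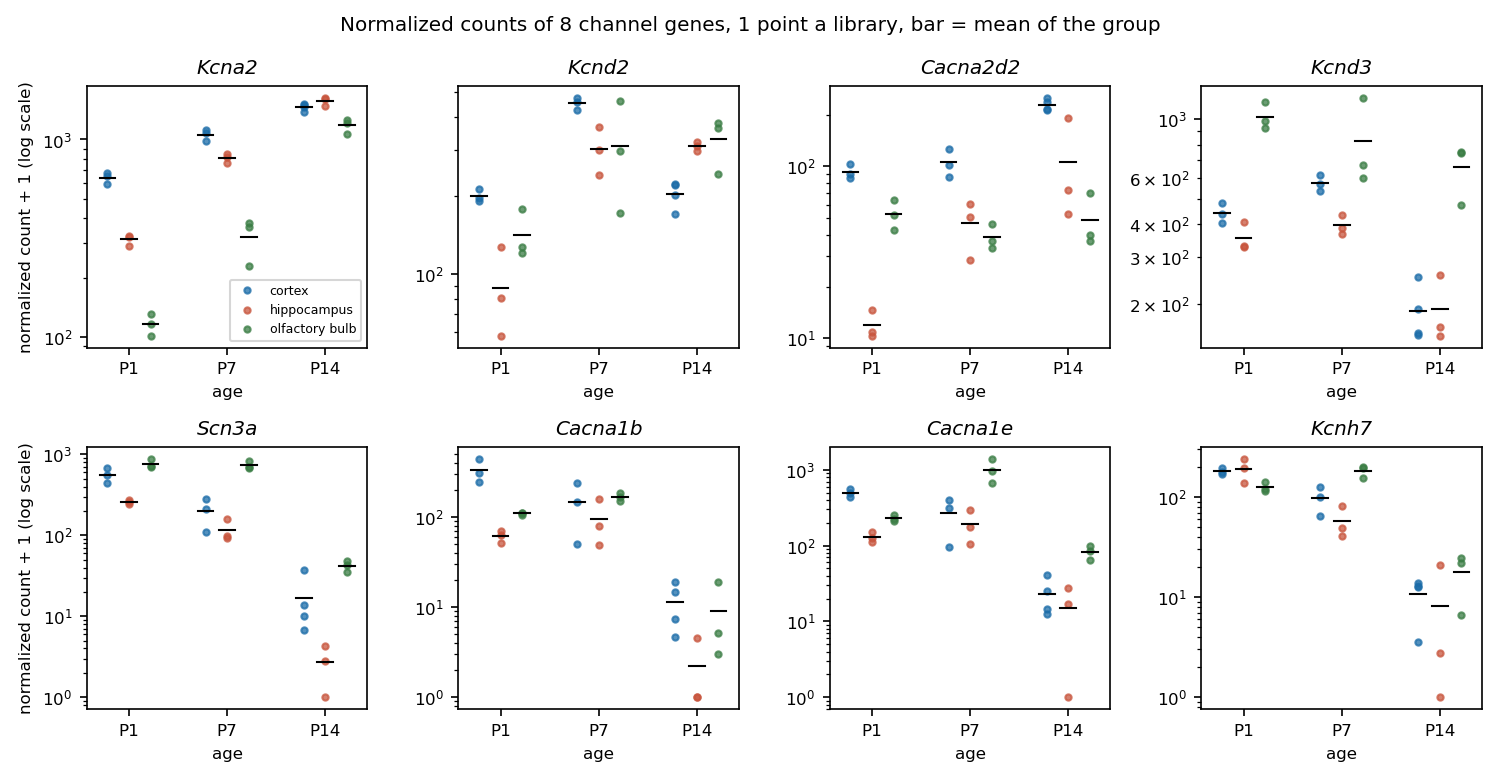
Normalized counts plus 1 (log axis) of 8 channel genes at P1, P7 and P14, 1 point per library, with a bar at each group mean and colours for the 3 regions. Kcna2 is higher at each later age in every region, Scn3a, Cacna1b and Kcnh7 are lowest at P14, and Cacna1e peaks at P7 in the olfactory bulb.

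The other Kv1 genes did not share one direction. Kcna1, which encodes Kv1.1, stood in the olfactory bulb at 3.58, 2.20 and 3.31 at P1, 117, 40.0 and 31.4 at P7 and 9.94, 51.0 and 132 at P14. It rose there by 3.41 ± 0.80 (adjusted p = 0.00393), with no overlap between P1 and P14 but a wide spread at P14. In hippocampus Kcna1 was at 47.7, 28.5 and 30.1 at P1 and 23.6, 9.92 and 19.7 at P14, a change of -1.0014 ± 0.46 that was not called (adjusted p = 0.0914). Kcna6 (Kv1.6) rose in hippocampus from 45.2, 22.3 and 16.0 at P1 to 112, 150 and 95.0 at P14, by 2.16 ± 0.37 (adjusted p = 0.000467). In cortex Kcna6 was 0.33 ± 0.16 (adjusted p = 0.0781) and in the olfactory bulb 1.4998 ± 0.61 (adjusted p = 0.0554). Kcna3, which encodes the Kv1.3 subunit known from T cells and microglia, was the largest Kv1 fall. It was at 21.9, 36.5 and 19.5 at P1 and 0.757, 0.629, 3.47 and 4.15 at P14 in cortex (-3.19 ± 0.55) and at 41.9, 39.2 and 41.4 at P1 and 0, 8.27 and 0 at P14 in the olfactory bulb (-4.32 ± 0.75), without overlap in either (adjusted p = 0.000194 and 0.000579). Over the same ages 7 of 8 cortical and 4 of 4 tested olfactory bulb microglia markers rose, and the cell source of the Kcna3 RNA was not tested. Summed over the 8 Kv1 genes, the level went from 802 ± 17.4 to 1602 ± 38.8 (SD) in cortex, most of it Kcna2. The hippocampal sum went from 389 ± 38.7 to 1706 ± 64.4, and that of the olfactory bulb from 190 ± 15.3 to 1327 ± 82.6.

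The Kv4 genes encode the pores of rapidly inactivating A-type currents. From P1 to P14 Kcnd2 (Kv4.2) rose in hippocampus and olfactory bulb, whereas Kcnd3 (Kv4.3) fell in every region. In cortex both had their highest mean at P7 and fell from P7 to P14. Kcnd2 was at 195, 211 and 189 at P1, 473, 426 and 457 at P7 and 221, 219, 168 and 200 at P14 in cortex. There it rose by 1.19 ± 0.12 to P7 (adjusted p = 8.57e-06) and fell by 1.17 ± 0.12 to P14 (adjusted p = 3.57e-06), so that P14 and P1 overlapped (0.02 ± 0.12, adjusted p = 0.882). In hippocampus Kcnd2 was at 57.0, 126 and 79.9 at P1, 238, 299 and 364 at P7 and 310, 294 and 321 at P14. It rose from P1 to P14 by 1.88 ± 0.27 (adjusted p = 0.000134), nearly all of it before P7, without overlap. Its olfactory bulb values were 176, 126 and 120 at P1, 460, 295 and 171 at P7 and 364, 378 and 242 at P14, a rise of 1.21 ± 0.33 to P14 (adjusted p = 0.00850) with no overlap of P1 and P14.

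Kcnd3 fell in all 3 regions. In cortex it was at 403, 438 and 482 at P1, 537, 612 and 570 at P7 and 154, 252, 152 and 191 at P14, highest at P7 and lowest at P14. The hippocampal values were 327, 406 and 331 at P1 and 162, 257 and 150 at P14. The olfactory bulb values were 1166, 925 and 982 at P1 and 743, 754 and 473 at P14. P1 and P14 did not overlap in any region, and the changes were -1.26 ± 0.16, -0.93 ± 0.21 and -0.66 ± 0.26 (adjusted p = 9.19e-06, 0.00287 and 0.0474). The olfactory bulb call lies near the threshold: it was lost under 11 of the alternatives, with an adjusted p of up to 0.174 without P14 replicate 3. The antisense gene Kcnd3os overlaps exons of Kcnd3, and without a stated strand their reads cannot be told apart.

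Of the accessory and pore genes outside the Kv1 and Kv4 families, 4 rose in at least 1 region. Cacna2d2 encodes an alpha2delta subunit, which carries calcium channels to the surface. In cortex it went from 103, 89.2 and 84.2 at P1 to 235, 211, 214 and 249 at P14 (1.30 ± 0.15, adjusted p = 4.59e-06). In hippocampus it went from 13.5, 9.36 and 9.83 to 72.01, 190 and 52.0 (2.94 ± 0.51, adjusted p = 0.000548). P1 and P14 did not overlap in either region, and in the olfactory bulb the values overlapped (-0.16 ± 0.33, adjusted p = 0.700). The gene Gm17141 overlaps exons of Cacna2d2. Its relative Cacna2d4 rose in cortex from 2.84, 5.54 and 3.85 to 23.5, 25.2, 24.6 and 26.5 (2.39 ± 0.34, adjusted p = 3.87e-05), and Kcnc4, which encodes the Kv3.4 pore, from 1.70, 4.03 and 4.88 to 28.8, 28.3, 44.1 and 18.7 (2.78 ± 0.39, adjusted p = 2.81e-05). Neither gene overlapped between the ages, and neither reached the level needed for a test in hippocampus or olfactory bulb. Cacng7, a transmembrane AMPA receptor regulatory protein of the Cacng family, rose in hippocampus from 42.4, 54.4 and 60.8 to 144, 194 and 93.2 (1.39 ± 0.34, adjusted p = 0.00495). In cortex Cacng7 was at a mean of 130 at P1 and 127 at P14 (-0.04 ± 0.16), and its sign flipped to between 0.18 and 0.24 under other scalings.

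The summed level of the sodium channel pore genes went from 1051 ± 236 (SD) at P1 to 93.0 ± 22.7 at P14 in cortex. The hippocampal sum went from 465.6 ± 47.6 to 107 ± 92.2, and that of the olfactory bulb from 1150 ± 128 to 136 ± 70.2. All 4 tested cortical, 2 of 3 hippocampal and 3 of 4 olfactory bulb genes fell. These counts and those of the roles that follow stand beside falls in 40.3% of all cortical, 28.5% of all hippocampal and 31.4% of all olfactory bulb genes tested. Scn3a encodes Nav1.3, the pore known as typical of embryonic and neonatal brain. In cortex it was at 672, 556 and 436 at P1 and 12.9, 35.8, 9.15 and 5.71 at P14 (-5.33 ± 0.46, adjusted p = 3.16e-07). Hippocampal levels were 242, 256 and 270 at P1 and 0, 3.31 and 1.79 at P14, and the P14 libraries held at most 3 reads each, so the level was at least 64.5-fold lower (adjusted p = 7.04e-07). Olfactory bulb levels were 697, 713 and 868 at P1, 828, 701 and 676 at P7 and 33.8, 46.9 and 41.7 at P14 (-4.19 ± 0.17 from P1 to P14, adjusted p = 3.55e-08). No library of P14 overlapped P1, and in the olfactory bulb the P7 libraries overlapped those of P1. This floor of 3 reads per library is used for every fold bound given here.

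Scn1a, which encodes Nav1.1, the main pore of inhibitory interneurons, fell in all 3 regions. It was at 157, 149 and 94.9 at P1 and 4.16, 0.629, 4.10 and 1.56 at P14 in cortex (-5.35 ± 0.62). Its hippocampal counts were 24.2, 21.8 and 17.2 at P1 and 0, 0 and 0 at P14, at least 5.31-fold lower at P14. Its olfactory bulb counts were 84.6, 74.9 and 67.8 at P1 and 0, 0 and 9.72 at P14 (-5.12 ± 0.77). The ages did not overlap, and the adjusted p were 5.30e-06, 5.15e-05 and 0.000202. Scn9a, known from sensory neurons, was at 105, 70.8 and 53.4 at P1 and 0.378, 2.52, 0.946 and 0 at P14 in cortex, a change of -5.41 ± 0.60 without overlap (adjusted p = 3.26e-06). Genes Gm13630 and Gm13629 overlap exons of Scn1a and Scn9a. Scn8a encodes Nav1.6, the pore of the axon initial segment and node of Ranvier. In cortex it was at 342, 279 and 222 at P1 and 54.5, 80.5, 86.7 and 69.0 at P14 (-1.93 ± 0.27, adjusted p = 2.54e-05), and in the olfactory bulb at 263, 245 and 328 at P1 and 45.7, 44.1 and 119 at P14 (-2.13 ± 0.33, adjusted p = 0.000234). In hippocampus its 147.44, 172 and 222 at P1 and 68.8, 208 and 37.6 at P14 overlapped, and the change of -1.11 ± 0.48 was not called (adjusted p = 0.0728).

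Among the sodium beta genes, Scn3b was the one tested, and it fell in all 3 regions. Beta subunits tune gating and also act in cell adhesion. Scn3b was at 212, 210 and 180 at P1 and 4.54, 9.43, 7.57 and 11.9 at P14 in cortex (-4.49 ± 0.35, adjusted p = 1.05e-07) and at 133, 122 and 121 at P1 and 9.67, 6.62 and 12.5 at P14 in hippocampus (-3.61 ± 0.35, adjusted p = 6.61e-06). Neither overlapped between the ages. Olfactory bulb libraries held 141, 150 and 119 at P1 and 35.8, 5.51 and 119 at P14, where P14 replicate 3 reached the P1 range (-2.16 ± 0.77, adjusted p = 0.0323). That call was lost with edgeR (adjusted p = 0.0850), with DESeq2 (0.190) and in 7 other alternatives, among them leaving out any 1 of the P1 libraries.

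The calcium channel pore genes fell in cortex without exception among those tested (8 of 8), and 6 of 7 in hippocampus and 6 of 8 in the olfactory bulb fell. Their summed level was 1910 ± 367 (SD) at P1 and 238 ± 26.8 at P14 in cortex. The hippocampal sums were 742 ± 73.8 and 135 ± 48.1, and those of the olfactory bulb 1185 ± 97.1 and 360 ± 27.7. Cacna1b, the N-type pore of presynaptic terminals, was at 434, 305 and 245 at P1 and 6.43, 13.8, 18.0 and 3.63 at P14 in cortex (-5.01 ± 0.52). In hippocampus it was at 50.9, 69.1 and 61.4 at P1 and 0, 0 and 3.58 at P14, at least 15.2-fold lower at P14. The olfactory bulb values were 111, 104 and 110 at P1 and 1.99, 17.9 and 4.17 at P14 (-4.04 ± 0.53). The ages did not overlap in any region, and the adjusted p were 1.84e-06, 5.64e-05 and 8.19e-05.

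Cacna1a, the P/Q-type pore, was at 210, 158 and 168 at P1 and 27.996, 46.5, 31.5 and 31.1 at P14 in cortex (-2.36 ± 0.24). The hippocampal values were 84.4, 57.5 and 78.6 at P1 and 9.67, 35.3 and 23.3 at P14 (-1.80 ± 0.42). Olfactory bulb levels were 75.6, 63.0 and 74.5 at P1 and 35.8, 16.5 and 33.3 at P14 (-1.35 ± 0.30). All P14 libraries lay below all P1 libraries, as they did for Cacna1c, an L-type pore. Cacna1c was at 436, 364 and 286 at P1 and 13.2, 15.7, 36.6 and 1.56 at P14 in cortex (-4.86 ± 0.64). Hippocampal levels were 265, 245 and 268 at P1 and 21.5, 3.31 and 1.79 at P14 (-5.33 ± 0.63). Its olfactory bulb counts were 642, 553 and 575 at P1 and 23.9, 132 and 29.2 at P14 (-3.67 ± 0.50). Cacna1h encodes a low-threshold T-type pore. It was at 192, 165 and 133 at P1 and 15.5, 38.4, 16.1 and 30.6 at P14 in cortex (-2.74 ± 0.29). Its hippocampal counts were 57.0, 110 and 117 at P1 and 8.60, 9.92 and 17.9 at P14 (-2.86 ± 0.43). Olfactory bulb libraries held 49.1, 48.4 and 57.4 at P1 and 21.9, 12.4 and 15.3 at P14 (-1.62 ± 0.32). It did not overlap between the ages either, and the adjusted p of these 3 genes lay between 1.47e-06 and 0.00393. Gm16183, Dcp1b and Tpsg1 overlap exons of Cacna1a, Cacna1c and Cacna1h.

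Cacna1e, the R-type pore, fell from P1 to P14 in each region by different routes. In cortex it was at 565, 497 and 432 at P1, 308, 95.1 and 402 at P7 and 11.3, 24.5, 39.4 and 13.5 at P14 (-4.58 ± 0.45 from P1 to P14, adjusted p = 1.13e-06). In hippocampus it was at 126, 111 and 149 at P1, 104, 174 and 294 at P7 and 16.1, 26.5 and 0 at P14 (-4.05 ± 0.96, adjusted p = 0.00427). The olfactory bulb values were 252, 207 and 226 at P1, 1370, 976 and 661 at P7 and 83.5, 63.4 and 97.2 at P14. There it rose by 2.07 ± 0.25 from P1 to P7 (adjusted p = 0.000954) and fell by 3.57 ± 0.25 from P7 to P14 (adjusted p = 3.21e-06), ending below P1 (-1.49 ± 0.25). Cacna1d, the other L-type pore of brain, was at 249, 166 and 153 at P1 and 108, 92.4, 82.0 and 154 at P14 in cortex (-0.80 ± 0.26, adjusted p = 0.0151) and at 82.3, 90.4 and 131 at P1 and 26.9, 82.7 and 39.4 at P14 in hippocampus (-1.14 ± 0.38, adjusted p = 0.0279), with overlapping ages in both. In the olfactory bulb its change of 0.48 ± 0.36 was not called (adjusted p = 0.282).

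The calcium beta genes, whose products hold the pore in the membrane, fell in 4 of 4 cortical, 1 of 4 hippocampal and 3 of 4 olfactory bulb tests. The hippocampal share is near the 28.5% of all genes tested there. Cacnb2 had the largest fall of them in cortex, 29.3, 26.4 and 34.4 at P1 and 17.8, 0.629, 9.78 and 2.60 at P14 (-2.39 ± 0.66). Cacnb1 had it in hippocampus, 35.6, 42.8 and 38.7 at P1 and 3.22, 5.51 and 26.9 at P14 (-2.12 ± 0.63), and Cacnb3 in the olfactory bulb, 122, 128 and 127 at P1 and 19.9, 23.4 and 5.55 at P14 (-3.08 ± 0.43). None of these overlapped (adjusted p = 0.00593, 0.0155 and 0.000119), and the Cacnb1 call was lost without P1 replicate 2 (adjusted p = 0.0542) and under quantile normalization (-1.18, adjusted p = 0.0524). Cacnb4, which kept means of 91.6, 94.7 and 111 at P14, changed by -1.39 ± 0.22 in cortex and -1.58 ± 0.26 in the olfactory bulb, both called, and by -0.82 ± 0.55 in hippocampus (adjusted p = 0.233). Among the alpha2delta genes Cacna2d1 went against Cacna2d2 and fell in all 3 regions. It was at 511, 488 and 404 at P1 and 94.2, 119, 116 and 101 at P14 in cortex (-2.11 ± 0.25). The hippocampal values were 347, 437 and 410 at P1 and 73.1, 27.6 and 62.7 at P14 (-2.95 ± 0.35). Olfactory bulb levels were 376, 593 and 511 at P1 and 51.7, 17.9 and 84.7 at P14 (-3.46 ± 0.47). The ages did not overlap, with adjusted p between 6.04e-06 and 9.49e-05.

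Cacna2d3 fell in cortex, 111, 94.7 and 56.2 at P1 and 8.32, 8.80, 19.2 and 8.83 at P14 (-2.87 ± 0.44), and in the olfactory bulb, 45.2, 22.5 and 30.3 at P1 and 9.94, 0 and 0 at P14 (-3.87 ± 0.82), without overlap (adjusted p = 7.20e-05 and 0.00211). Of the Cacng genes, whose products mostly act on AMPA receptors, Cacng2 (stargazin) fell in cortex and hippocampus. It was at 84.7, 59.7 and 64.9 at P1 and 22.3, 10.1, 7.25 and 2.08 at P14 in cortex (-2.96 ± 0.59, adjusted p = 0.000565). Hippocampal levels were 34.9, 69.1 and 31.3 at P1 and 0, 0 and 0 at P14, at least 11.4-fold lower (adjusted p = 1.81e-05). The ages were apart in both regions, and in the olfactory bulb its -1.76 ± 0.75 was not called (adjusted p = 0.0645). Cacng5 fell in cortex (-1.64 ± 0.40, adjusted p = 0.00283) and in hippocampus (-2.62 ± 0.42, adjusted p = 0.000302). In the olfactory bulb it stood at a mean of 157 at P14, and its change of 0.54 ± 0.29 was not called (adjusted p = 0.133).

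Kv2 channels carry delayed rectifier currents, as do Kv3.1 and Kv3.2, which have the fast kinetics of neurons that fire at high rates. Kcnb2 (Kv2.2) was at 67.9, 54.4 and 51.6 at P1 and 5.30, 1.26, 3.78 and 5.71 at P14 in cortex (-3.66 ± 0.49) and at 110, 124 and 101 at P1 and 0, 0 and 25.1 at P14 in hippocampus (-5.24 ± 1.01), without overlap (adjusted p = 1.86e-05 and 0.00120). Kcnc1 (Kv3.1) fell in all 3 regions. It was at 287, 210 and 151 at P1 and 89.3, 123, 153 and 119 at P14 in cortex (-0.81 ± 0.24). Its hippocampal counts were 181, 302 and 161 at P1 and 26.9, 87.1 and 75.2 at P14 (-1.86 ± 0.41). Its olfactory bulb counts were 285, 241 and 273 at P1 and 135, 88.2 and 91.6 at P14 (-1.36 ± 0.22, adjusted p = 0.000375, and 0.00270 in hippocampus). The ages overlapped in cortex, where the call (adjusted p = 0.00851) was lost after TMM scaling (0.0607) and without P1 replicate 1 (0.0531).

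Kcnc2 (Kv3.2) also fell in all 3. It was at 64.2, 47.4 and 57.5 at P1 and 13.998, 2.52, 1.26 and 7.27 at P14 in cortex (-3.34 ± 0.60). In hippocampus it was at 15.3, 15.6 and 24.6 at P1 and 0, 0 and 1.79 at P14, at least 4.66-fold lower. Olfactory bulb libraries held 35.1, 24.2 and 31.4 at P1 and 9.94, 6.89 and 4.17 at P14 (-2.02 ± 0.38). No P14 library reached the P1 range, and the adjusted p were 0.000269, 0.000630 and 0.00105.

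The EAG family includes the ERG channels, of which Kcnh7 (ERG3) fell in all 3 regions. It was at 176, 194 and 167 at P1 and 11.7, 11.9, 12.9 and 2.60 at P14 in cortex (-4.24 ± 0.41). The hippocampal values were 196, 139 and 237 at P1 and 0, 19.8 and 1.79 at P14 (-5.59 ± 0.86). The olfactory bulb values were 114, 141 and 120 at P1 and 23.9, 20.7 and 5.55 at P14 (-3.04 ± 0.43). The ages did not overlap, with adjusted p between 9.69e-07 and 0.000228, and Gca overlaps exons of this gene. Kcnh1 (EAG1) fell in the olfactory bulb from 75.6, 73.5 and 95.4 at P1 to 1.99, 0 and 0 at P14, at least 17.1-fold lower (adjusted p = 4.31e-06). Kcnh8 and Kcnh4 were at least 8.14-fold and 5.05-fold lower there. Over the family 5 of 6 tested cortical, 1 of 3 hippocampal and 5 of 6 olfactory bulb genes fell, and none rose. In hippocampus, too, 28.5% of all genes tested fell. Kcnh5 kept means of 35.4, 22.3 and 54.4 at P14, and its changes were -0.91 ± 0.23 (called), -0.81 ± 0.42 and -0.80 ± 0.33 (not called).

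Kv7 channels carry the M-current, which damps repetitive firing. Of the family 2 of 3 tested cortical, 3 of 4 hippocampal and 2 of 3 olfactory bulb genes fell, and none rose. Kcnq3 fell in hippocampus, 165, 238 and 179 at P1 and 16.1, 19.8 and 34.0 at P14 (-3.05 ± 0.37, adjusted p = 3.97e-05), and in the olfactory bulb (-2.03 ± 0.57, adjusted p = 0.0105). In cortex Kcnq3 was at 88.1, 112 and 78.3 at P1 and 156, 158, 114 and 92.4 at P14, with overlapping ages (0.46 ± 0.36, adjusted p = 0.272). Kcnq5 fell in cortex from 139, 118 and 82.4 to 4.92, 3.14, 5.68 and 0.519 (-4.81 ± 0.61, adjusted p = 1.26e-05). The Kv beta genes stayed near the level needed for a test. Kcnab1 fell in cortex, 25.6, 24.9 and 19.5 at P1 and 1.14, 10.1, 1.58 and 11.9 at P14 (-2.19 ± 0.62, adjusted p = 0.00714), and this call was lost under quantile normalization (0.0748). Kcnab2 fell in the olfactory bulb, 10.8, 16.7 and 10.5 at P1 and 0, 11.0 and 0 at P14 (-2.55 ± 0.88, adjusted p = 0.0288), with overlapping ages, and lost the call under 10 alternatives. In cortex Kcnab2 changed by 0.12 ± 0.37 (adjusted p = 0.797). Kcnab3 fell in cortex by the test although the ages overlapped (-1.42 ± 0.45, adjusted p = 0.0139), and in the olfactory bulb its -1.80 ± 0.90 was not called (adjusted p = 0.109).

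The age of the highest group mean was counted within each region, and differences between regions were not tested. In cortex 35 of 51 tested channel genes had it at P1 (68.6%, against 46.3% of all genes tested) and 10 at P7 (19.6%, against 22.7%). In hippocampus 16 of 41 had it at P1 (39.0%, against 42.3%) and 19 at P7 (46.3%, against 19.9%). The olfactory bulb had 9 of 48 at P1 (18.75%, against 36.7%) and 33 at P7 (68.75%, against 22.9%). From P1 to P7 11 cortical genes fell (21.6%, against 18.1% of all genes tested) and 5 rose (9.80%, against 15.6%). In hippocampus 3 fell (7.32%, against 6.92%) and 5 rose (12.2%, against 11.2%), shares near those of all genes. The cortical rises were Kcna2, Kcna6, Kcnd2, Cacna2d4 and Kcnc4, and the hippocampal ones included Kcna2, Kcna6, Kcnd2 and Cacna2d2. In the olfactory bulb 0 fell by limma (0%, against 2.98%) and 6 rose (12.5%, against 7.59%), among them Kcna2, Kcna1, Kcna4, Cacna1d and Cacna1e. At an unadjusted p under 0.05 limma gave 16 of the 48 genes there in either direction, against 2749 of all 11490 genes tested. There edgeR and DESeq2 on recovered reads each called 1 lower. From P7 to P14 34 fell (66.7%, against 31.3%) and 5 rose (9.80%, against 18.6%) in cortex, 22 fell (53.7%, against 17.7%) and 1 rose (2.44%, against 12.5%) in hippocampus, and 35 fell (72.9%, against 26.6%) and 1 rose (2.08%, against 20.4%) in the olfactory bulb. The gene that rose in the last 2 was Kcna2. The medians from P1 to P7 were -0.65, 0.45 and 0.64, and from P7 to P14 -1.63, -1.45 and -2.69. With the 3 olfactory bulb genes at the floor of 3 reads set to their bound, the last was -2.53.

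The P1 to P7 counts moved with single libraries. In cortex the 16 calls became 9, 10 or 8 without P1 replicate 1, P1 replicate 2 or P7 replicate 2, and 24 (5 higher, 19 lower) without P7 replicate 3. Replicate 2 of P7 had the lowest neuron marker sum of its group (3158, against 5208 and 6766). Some channel genes were also low in it, such as Cacna1e at 95.1 against 308 and 402, and a link between the 2 was not tested. In hippocampus the 8 calls became 5, 5 and 4 without P1 replicates 1, 2 and 3, and 4 and 5 without P7 replicates 1 and 2. The 6 olfactory bulb calls became 3 without P1 replicate 2 and 3 without P7 replicate 1. The split also moved: after TMM scaling 7 cortical genes rose and 8 fell, and under quantile normalization 7 hippocampal genes rose and 8 fell.

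Summed over all 72 genes, the level was 8002 ± 889 (SD) at P1, 6290 ± 1403 at P7 and 3755 ± 124 at P14 in cortex. In hippocampus it was 4314 ± 289, 4561 ± 842 and 3479 ± 349, and in the olfactory bulb 6484 ± 238, 9357 ± 1631 and 3981 ± 61.2. Without Kcna2 the P14 sums were 2293 ± 116, 1911 ± 427 and 2803 ± 96.6, below every P1 library of the same region (lowest 6423, 3678 and 6081). The neuron marker sum in the olfactory bulb stayed at 7991 to 10633 at P7, where the channel sum was highest. Other cell markers shifted there from P1 to P7. All 6 oligodendrocyte precursor markers rose (median log2 change 2.49), as did 4 of 4 tested microglia and 7 of 10 astrocyte markers. Of 6 immature neuron markers 2 fell. The part of these shifts in the channel sum was not tested.

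**Figure D3:**
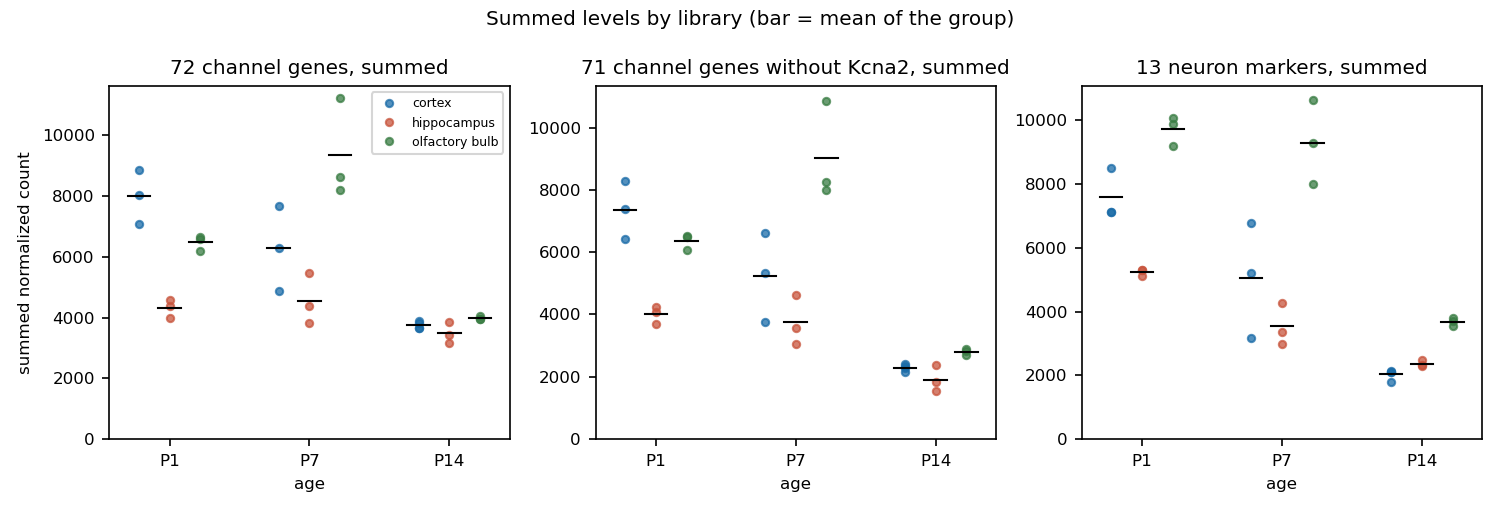
Summed normalized counts per library (vertical axis, from 0) of the 72 channel genes, of the 71 without Kcna2 and of 13 neuron markers at P1, P7 and P14; points are libraries, bars are group means, colours are regions. The channel sum without Kcna2 is lowest at P14 in each region (means 2293, 1911 and 2803), and in the olfactory bulb it is highest at P7.

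Partner genes were counted from a list of 39 that modulate or anchor these channels, 38 of which are in the files. Of the 23 tested cortical ones 3 rose and 15 fell (against 24% and 40.3% of all genes). In hippocampus 7 rose and 8 fell of 19 (against 21% and 28.5%). In the olfactory bulb 10 rose and 7 fell of 24 (against 24.8% and 31.4%), and that count of falls is near the share of all genes. Of the 19 tested in all 3 regions, Kcnip3, Ank2 and Kcng4 rose in every one and Ank3, Fgf14, Kcnip1 and Unc79 fell in every one. Kcnip3 encodes a calcium-binding partner of Kv4 pores, also known as a transcriptional repressor. Its mean went from 752 ± 115 (SD) to 2113 ± 88.5 in cortex (1.4998 ± 0.11, adjusted p = 8.61e-08), from 711 ± 145 to 2599 ± 154 in hippocampus (1.89 ± 0.15, adjusted p = 1.49e-06) and from 146.85 ± 26.1 to 2129 ± 63.1 in the olfactory bulb (3.86 ± 0.34, adjusted p = 4.04e-06). Kcng4 encodes a silent subunit that joins Kv2 pores. It had at most 3 reads in any P1 library and means of 135 ± 25.6, 60.2 ± 46.9 and 32.9 ± 9.23 at P14. Ankyrin genes split: Ank2 rose by 1.57 ± 0.09, 2.54 ± 0.15 and 1.47 ± 0.10, while Ank3, whose product ankyrin-G gathers sodium and Kv7 channels at the axon initial segment, changed by -2.87 ± 0.32, -3.67 ± 0.26 and -2.56 ± 0.27. Among the falls were Sptbn4 in cortex (-3.47 ± 0.46), Nalcn in hippocampus (-4.05 ± 0.82) and Rem2 in the olfactory bulb (-4.27 ± 0.57).

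At P28 no channel gene was called between Gabbr1 control and Gabbr1 cKO in any region. Gabbr1 itself checked the labels: it was at 927 to 1930 in control and 89.8 to 211 in cKO cortex, at 780 and 824 against 152 to 380 in hippocampus, and at 184 to 318 against 63.6 to 99.5 in the olfactory bulb, without overlap. By limma Gabbr1 was the 1 gene called in cortex (-3.45 ± 0.29, adjusted p = 4.4e-05). It was not called in hippocampus (-1.84 ± 0.39, adjusted p = 0.936) or olfactory bulb (-1.48 ± 0.33, adjusted p = 0.877). The threshold thus missed even the knocked-out gene in these 2 regions. Of the channel genes 27, 33 and 45 could be tested in cortex, hippocampus and olfactory bulb. By limma 0, 0 and 0 were called, against 0.00982%, 0% and 0% of all genes tested. By edgeR and by DESeq2 on recovered reads the counts were 0 as well, and in cortex also with the round of deposit (label style) as a covariate. At an unadjusted p under 0.05 limma gave 0 of 27, 1 of 33 and 4 of 45 channel genes. Of all genes tested it gave 221 of 10188, 296 of 11639 and 349 of 11539. The intervals are wide with 2 to 4 libraries a group, and a missed threshold does not show that the genotypes are alike.

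Kcna2 at P28 was at 1401, 1157, 1105 and 1080 in control cortex and at 1015, 1413, 1379 and 943 in cKO cortex. Hippocampal levels were 920 and 1267 against 1125, 4291, 1032 and 856. Olfactory bulb levels were 1914, 2332 and 1511 against 1798, 1471 and 1467. The genotypes overlapped in each region, with log2 differences (cKO minus control) of -0.01 ± 0.19, 0.41 ± 0.58 and -0.27 ± 0.23. Without hippocampal cKO replicate 2 the middle one was -0.11 ± 0.22. Kcna2 again held a large share of the channel sum, on average 48.4% in control and 48.5% in cKO cortex, and 34.5% and 33.3% in the olfactory bulb. In hippocampus its share was 38.6% and 45.5% in control and 45.1%, 71.2%, 42.4% and 29.9% in cKO, where the 71.2% is cKO replicate 2.

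One library stood apart in hippocampus and another in the olfactory bulb. Hippocampal cKO replicate 2 had 0.594% of its reads on the ribosomal gene Rn45s (28.6% to 38.0% in the other 5), a neuron marker sum of 3221 (1456 to 1971 in the others), a mature oligodendrocyte sum of 16859 (3681 to 11092) and a channel sum of 6026 (2382 to 2859). Olfactory bulb control replicate 2 had 0.476% on Rn45s (28.8% to 35.8% in the others), the highest neuron (4991) and immature neuron (3045) sums and a channel sum of 7469.

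Genes among the 3 with the smallest unadjusted p in each region are named here, and none passed the adjusted threshold. In hippocampus Kcnd2 was at 65.7 and 81.0 in control and at 129, 313, 115 and 122 in cKO, 1.07 ± 0.46 higher (unadjusted p = 0.0444, adjusted 0.936), and 0.73 without cKO replicate 2. Scn8a was at 25.8 and 51.6 against 52.3, 189, 53.5 and 126 (1.28 ± 0.62, and 0.93 without that library). Kcnc4 was at 2.35 and 2.67 against 11.6, 5.78, 27.9 and 22.3, with replicate 2 the lowest cKO library. Its cKO mean was 6.75-fold the control mean, which rests on at most 3 reads per library. The genotypes did not overlap for these 3 genes, with only 2 control libraries. Olfactory bulb Kcnd1 was at 42.5, 91.9 and 18.0 in control and at 8.60, 10.9 and 7.97 in cKO (-2.07 ± 0.69, unadjusted p = 0.0126, adjusted 0.877, and -1.51 without control replicate 2). Cacna1c was at 52.8, 315 and 50.1 against 20.6, 41.8 and 16.7 (-1.91 ± 0.69, and -1.05 without control replicate 2). Kcna4 was at 36.7, 95.3 and 33.1 against 12.03, 23.9 and 12.3 (-1.61 ± 0.59, and -1.14 without that library). For all 3 genes the control library with the highest value was replicate 2, and the genotypes did not overlap.

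In cortex Scn3a was at 12.7, 5.84, 19.7 and 20.1 in control and at 0, 0, 3.20 and 25.9 in cKO (-2.12 ± 1.18, unadjusted p = 0.0906). Kcnc4 was at 5.28, 1.17, 23.0 and 14.5 against 3.37, 45.1, 60.7 and 20.1 (1.42 ± 0.92). The genotypes overlapped for both genes. Partner genes gave 0 calls in each region, of 17, 18 and 22 tested.

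**Figure D4:**
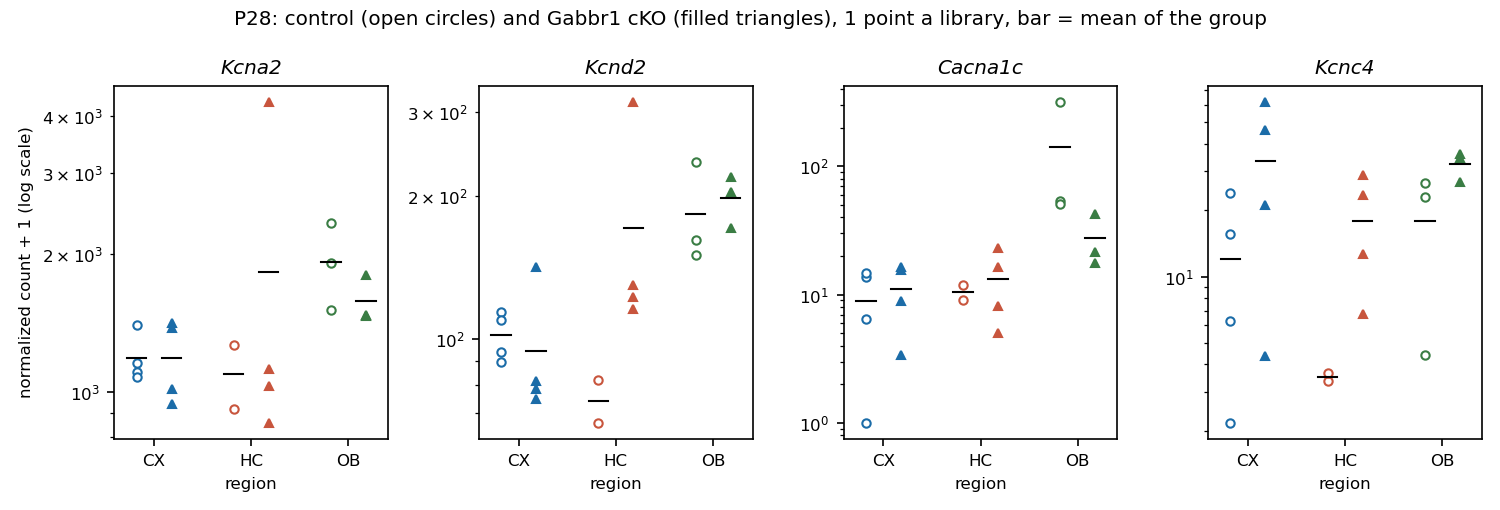
Normalized counts plus 1 (log axis) of Kcna2, Kcnd2, Cacna1c and Kcnc4 at P28 in cortex (CX), hippocampus (HC) and olfactory bulb (OB); open circles are Gabbr1 control and filled triangles Gabbr1 cKO libraries, bars are group means. The highest hippocampal Kcna2 point (4291) is cKO replicate 2, and the highest olfactory bulb Cacna1c point (315) is control replicate 2.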

How the data were processed

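RNA was sequenced from 48 libraries with a low-input kit, per the labels' protocols. The submitters' processing notes name STAR 2.5.0a, DESeq2 1.20.0, FastQC, MultiQC and mm10. The counting program, annotation and strand are not given in the sources used here. The authors deposited 6 tables of normalized counts (a signal per gene, scaled by 1 factor per library), separately for each region and for development and P28, with 0 columns of other samples. In addition, 27 symbols that a spreadsheet had turned into dates were restored. Values were whole multiples of 1 step in each library (100% within 0.01), which gave the reads. The step of olfactory bulb P28 cKO replicate 2 is near 1, so this checks little there.

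Samples were grouped by their labels, and replicates were numbered in accession order. Genes with a mean of at least 10 over a table were tested with limma 3.58.1 (lmFit, eBayes with trend, R 4.3.3) on log2(value + 1). They were called at a Benjamini-Hochberg adjusted p under 0.05 over all genes. The printed changes of low genes depend on the added 1 and on libraries at 0, and can be too small or too large. For Kcnab2 in the olfactory bulb from P1 to P14, edgeR gave -1.57 and DESeq2 -1.61, smaller falls than by limma. Fits covered the 3 ages or both genotypes of a region. As alternatives, edgeR 4.0.16 (quasi-likelihood) and DESeq2 1.42.0 ran on the recovered reads, and other pseudocounts, filters and scalings were tried and each library was left out. From P1 to P14, edgeR called 7408 of the 11822 cortical, 5469 of the 11578 hippocampal and 6399 of the 11490 olfactory bulb genes tested. The scripts were tested on simulated data. Tables and plots were made with Python 3.11.15 (pandas 2.3.3, numpy 2.4.6, matplotlib 3.10.9). Positions and exon lengths come from GENCODE M21 by symbol, which matched all 72 genes.

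The channel genes and the marker and partner lists were chosen with earlier results of these data known. Genes were named by rule: the largest called rise and fall of each role and region from P1 to P14, those called alike in all 3 regions, the highest P14 mean of each role, and the 3 smallest p at P28. Some genes that the rule names are not reported here.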

Additional observations from a re-analysis of the deposited data

Results flagged for a closer look

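Values far from the rest of their group were looked for in 37 groups of 4 libraries, and chance alone marks about 1 in 20 such groups. In 5 of them 1 library lay apart. In cortex at P14, Cacna2d3 was at 19.2 in replicate 3 (8.32 to 8.83 in the others) and Kcnh7 at 2.60 in replicate 4 (11.7 to 12.9). In cortex at P28, Scn3a was at 25.9 in cKO replicate 4 (0 to 3.20). That library came from the later round of deposit, as did control replicates 3 and 4 (19.7 and 20.1). In hippocampus at P28, cKO replicate 2 held both other values, Kcna2 at 4291 (856 to 1125) and Kcnd2 at 313 (115 to 129). That library also had the lowest Rn45s share of its table, 0.594%.

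For 3 genes every P14 library lay on one side of P1 in one region and on the other side in another, and the difference between regions was not tested. Cacng5 changed by -1.64 in cortex and -2.62 in hippocampus and by 0.54 in olfactory bulb. Kcna1 changed by -1.0 in hippocampus and 3.41 in olfactory bulb. Kcna4 changed by -2.97 in cortex and 0.92 in olfactory bulb. These are log2 changes from P1 to P14, and none of the 3 genes was called in opposite directions.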

How the results depend on the processing

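Of 1288 values of 77 results (called age changes and the P28 differences of the genes named by rule) under the alternatives run, 1253 kept direction and side of the threshold, 35 (in 6 results) missed the threshold, and 0 changed sign. The uncalled cortical change of Cacng7 is not among these, and its sign flipped under other scalings. With a minimum mean of 100 fewer genes were tested, and 16, 9 and 16 cortical channel genes were called (P1 to P14, P1 to P7, P7 to P14), 10, 5 and 8 in hippocampus, and 13 from P1 to P14 and 13 from P7 to P14 in olfactory bulb. The P1 to P7 counts moved most, and the cause was not tested. The 8 hippocampal calls became 13 with a pseudocount of 8, 15 under quantile normalization and 20 in a fit of only these 2 ages. The 6 olfactory bulb calls became 11, 11 and 26 under the same alternatives, 14 with edgeR and 17 with DESeq2. Leaving out 1 library gave 40 to 42 (P1 to P14), 8 to 24 (P1 to P7) and 33 to 39 (P7 to P14) calls in cortex, 24 to 30, 4 to 6 and 18 to 25 in hippocampus, and 27 to 33, 3 to 7 and 28 to 36 in olfactory bulb. At P28 it gave 0 to 0. Of all called cortical genes, TMM scaling moved the share that was higher from 46.4% to 56.5% for P1 to P7 and from 37.3% to 52.7% for P7 to P14. Quantile normalization moved the hippocampal P1 to P14 median of all genes from -0.29 to -0.03. No paired analysis was possible because the replicate numbers come from accession order and pair nothing. Levels of a few reads, such as those of many sodium channel genes at P14, limit the fold changes to bounds.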
